A study of Saccharomyces cerevisiae with 6 samples.

Results

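The 9 genes described here carry out or control lysine synthesis in the budding yeast Saccharomyces cerevisiae: LYS20, LYS21, LYS4, LYS12, LYS2, LYS5, LYS9, LYS1 and LYS14. They were chosen by gene symbol, with 1 probe each, from the 5379 genes named on the array. Cells of strain S288C, the strain of the reference genome, were grown in rich YPD medium and held in 1.8 mM formaldehyde for 2 h, and untreated cells of that strain were grown on in YPD for 2 h as the control. Each of 3 independent biological samples was hybridised to one 2-colour array, with cDNA of formaldehyde-treated cells in Cy5 and cDNA of untreated cells in Cy3, and each array was scanned at high and low laser power. No array had the dyes swapped, so a dye effect of a single gene and the treatment cannot be told apart.

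Fungi make lysine through the 2-aminoadipate pathway. Its upper segment joins acetyl-CoA to 2-oxoglutarate and, through homocitrate and homoisocitrate, yields 2-oxoadipate, by chemistry that resembles the first steps of the citric acid cycle. The lower segment starts from 2-aminoadipate, which is activated and reduced to its semialdehyde, joined to glutamate as saccharopine, and cleaved to lysine and 2-oxoglutarate. Lysine inhibits the first enzyme, homocitrate synthase, and the semialdehyde acts through the activator Lys14 on several of the genes, while Gcn4 activates them when amino acids are scarce.

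Values are log2 ratios of formaldehyde-treated over untreated cells. That direction is likely rather than settled. It rests on the labels, where channel 1 (Cy5) holds the treated RNA; no source says which way the deposited ratio runs, and the opposite reading would exchange higher and lower throughout. Each array gave ratios for a part of the genes. Array 1 had values for 4 of the 9 lysine genes (44.4%, against 46.4% of all genes), array 2 for 5 (55.6%, against 61.9%) and array 3 for all 9 (against 79.8%). Of the 9 genes, 2 had a value on all 3 arrays, 5 on 2 arrays and 2 on array 3 alone. The main test was a moderated test of the mean log2 ratio against 0 across the 2133 genes with values on all 3 arrays (limma, Benjamini-Hochberg adjusted p under 0.05). Genes with 2 arrays were tested in a second fit over the 3307 genes with at least 2 arrays. Spot intensities were not used here, so nothing is known of how bright each spot was, and precision rests on how many arrays there are. The ratios come from whole cultures, in which fewer cells holding a transcript and less of it per cell cannot be told apart.

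Transcripts of the lysine pathway did not move as a block. LYS1, the last step, rose 8.03-fold, and LYS5, which activates the LYS2 enzyme, rose 4.10-fold. LYS12 and LYS9 fell 13.9-fold and 9.24-fold, and LYS20, LYS21 and LYS2 fell between 2.52-fold and 3.22-fold. In the test of genes with all 3 arrays, 1 of the 2 lysine genes tested rose and 1 fell; of the 2133 genes tested, 37.2% rose and 25.3% fell, 62.5% called in all. In the fit of genes with at least 2 arrays, 2 of the 7 lysine genes tested rose and 5 fell, where 30.3% of all genes rose and 24.7% fell. The 7 called of 7 stand beside 55.0% of all genes called in that fit, so a call by itself was common.

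**Figure D1:**
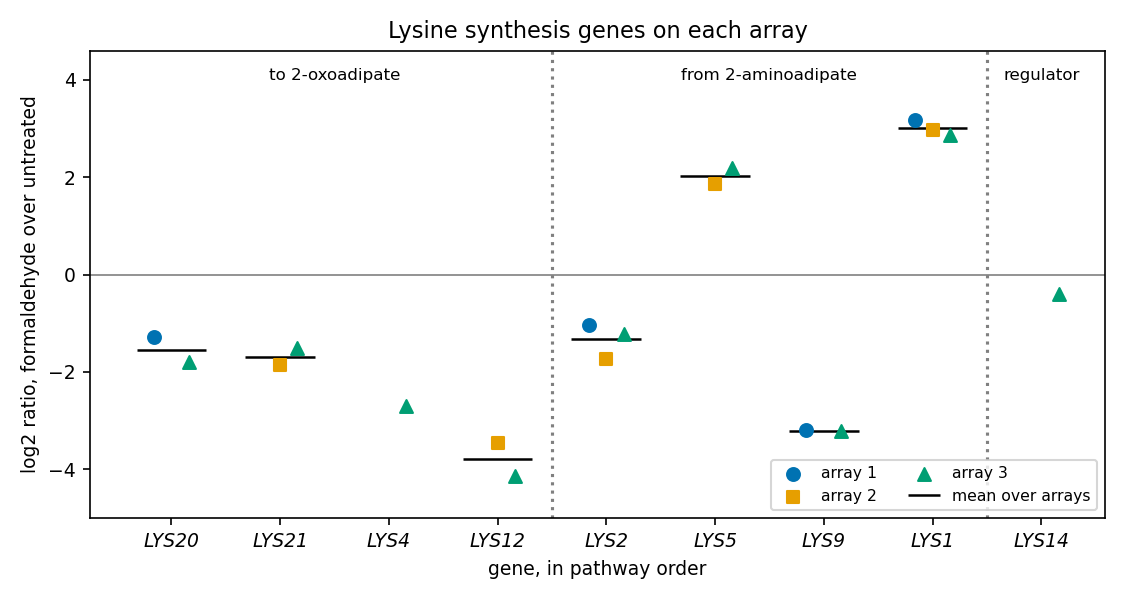
Log2 ratio of formaldehyde-treated over untreated cells (vertical axis) for the 9 lysine synthesis genes in pathway order (horizontal axis); each symbol is 1 array and each line the mean over the arrays with a value. LYS1 and LYS5 lie above 0 and the other 7 genes below 0 on every array that measured them, from -4.14 for LYS12 to 3.18 for LYS1.

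LYS20 (YDL182W) and LYS21 (YDL131W) encode the pair of homocitrate synthases that open the pathway. LYS20 had log2 ratios of -1.29 on array 1 and -1.79 on array 3, with no value on array 2. Its mean was -1.54 ± 0.35 (SD, n = 2), or 2.91-fold lower, with adjusted p = 0.00072 in the fit of genes with at least 2 arrays (limma). LYS21 had log2 ratios of -1.87 on array 2 and -1.51 on array 3, with no value on array 1. Its mean was -1.69 ± 0.25 (SD, n = 2), or 3.22-fold lower (limma adjusted p = 0.000335 in that fit). Array 3 alone measured both genes, and there LYS20 minus LYS21 was -0.28 on the log2 scale, between the SDs over arrays of LYS21 (0.25) and LYS20 (0.35). The 2 genes are similar in sequence and their cDNA may cross-hybridise, so the 2 ratios may not be independent.

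LYS4 (YDR234W), homoaconitase, rearranges homocitrate towards homoisocitrate. It had a value in 1 scan, the high power scan of array 3, at a log2 ratio of -2.71, or 6.54-fold lower, and was not tested. LYS12 (YIL094C), homoisocitrate dehydrogenase, completes the upper segment by making 2-oxoadipate. LYS12 had log2 ratios of -3.45 on array 2 and -4.14 on array 3, both from high power scans, with a mean of -3.80 ± 0.49 (SD, n = 2; limma adjusted p = 1.09e-06 in the fit of genes with at least 2 arrays). This was the lowest mean of the 9 genes. On array 3, 1.4% of the 4292 genes with a value lay below LYS12. All 4 genes of the upper segment were below 0 on array 3 (45.6% of all genes there were), with a median log2 ratio of -2.25. The 3 tested in the fit of genes with at least 2 arrays all fell, where 24.7% of all genes fell.

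LYS2 (YBR115C), the 2-aminoadipate reductase, opens the lower segment and had a value on every array. Its log2 ratios were -1.03, -1.73 and -1.23 on arrays 1, 2 and 3, all below 0. The mean was -1.33 ± 0.36 (SD, n = 3), or 2.52-fold lower, with limma adjusted p = 0.00098 over the genes with 3 arrays. LYS5 (YGL154C) encodes the phosphopantetheinyl transferase that attaches the prosthetic group Lys2 needs to work. LYS5 went the other way, with log2 ratios of 1.87 on array 2 and 2.20 on array 3, both from high power scans. Its mean was 2.04 ± 0.23 (SD, n = 2; limma adjusted p = 8.73e-05 in the fit of genes with at least 2 arrays). LYS5 minus LYS2 was 3.60 on array 2 and 3.43 on array 3 on the log2 scale, so the enzyme and its activator differed in the same direction on both arrays that measured them.

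LYS9 (YNR050C) and LYS1 (YIR034C) encode the saccharopine dehydrogenases of the last 2 steps: Lys9 forms saccharopine and Lys1 cleaves it to lysine. LYS9 had log2 ratios of -3.19 on array 1 and -3.23 on array 3, nearly the same on both. Its mean was -3.21 ± 0.025 (SD, n = 2), or 9.24-fold lower (limma adjusted p = 2.22e-06 in the fit of genes with at least 2 arrays). LYS1 had a value in all 6 scans, with log2 ratios of 3.18, 2.98 and 2.86 on arrays 1, 2 and 3, the highest of the lysine genes on each array. Its mean was 3.01 ± 0.16 (SD, n = 3), or 8.03-fold higher, with limma adjusted p = 1.23e-05 over the genes with 3 arrays. LYS1 ranked number 44 by mean log2 ratio among the 794 genes called higher. The consecutive steps were thus far apart: LYS1 minus LYS9 was 6.37 on array 1 and 6.09 on array 3 on the log2 scale. LYS1 minus LYS2, the one difference between members that 3 arrays measured, was 4.21, 4.71 and 4.09, a mean of 4.34 ± 0.33 (SD, n = 3). An exact two-sided sign-flip permutation test of that difference gave p = 0.25, the smallest value 3 arrays can give.

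LYS14 (YDR034C), the transcription activator of the pathway, had a value in the high power scan of array 3 alone. Its log2 ratio there was -0.40, with 32.5% of the genes of that array lower, and it was not tested. Of the 9 genes it lay nearest to 0.

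Array 3, which measured all 9 genes, shows how far they spread. Their log2 ratios covered 7.01 units from LYS12 to LYS1, around a median of -1.51, where all 4292 genes had a median of 0.13. On that array 6 of the 9 were below -1, against 18.9% of all genes, and 2 of the 9 were above 1, against 21.3% of all genes. LYS14 was the remaining one. The upper segment had its 4 genes between -4.14 and -1.51, and the lower segment had 2 genes above 0 and 2 below. The members' medians were -1.16 on array 1 (4 genes) and -1.73 on array 2 (5 genes), against 0.014 and 0.050 for all genes there. These medians are over the genes each array happened to measure. They describe the arrays and are not a test of the pathway.

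**Figure D2:**
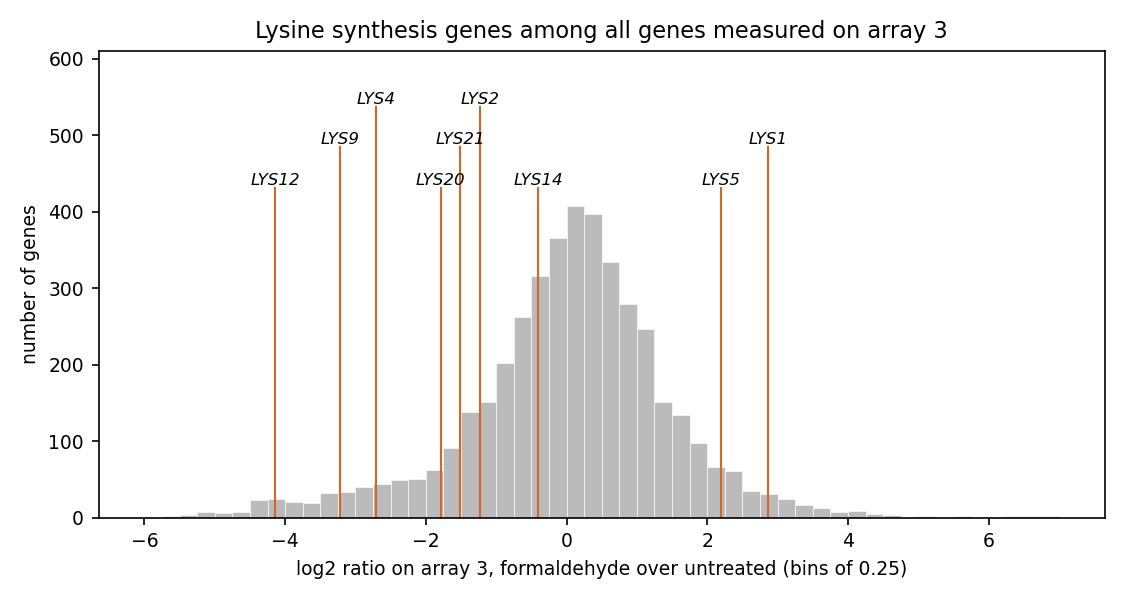
Number of genes (vertical axis) by log2 ratio on array 3 in bins of 0.25 (horizontal axis), with each of the 9 lysine synthesis genes marked by a labelled line whose height has no meaning. LYS12, LYS9 and LYS4 lie in the low tail, LYS5 and LYS1 in the high tail, and LYS14, at -0.40, near the centre.

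High and low power scans of one array could be compared 8 times among the lysine genes. They differed by 0.0729 to 0.454 on the log2 scale, where the median absolute difference over the 3351 such pairs of all genes was 0.212. The largest difference was that of LYS21 on array 3, at -1.74 in the high power scan and -1.28 in the low power scan. For LYS1 the high power scans gave 3.29, 2.90 and 2.71 and the low power scans 3.07, 3.05 and 3.02 on arrays 1, 2 and 3. No lysine gene changed sign between scans of an array in these 8 comparisons.

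Genes that feed, use or regulate lysine were read from a list of 17 genes for transport, regulation, side steps and tRNA charging. A value on at least 1 array was found for 14 of them. Of the 11 measured on all arrays, 1 rose, 5 fell and 5 did not pass, a share called near the 62.5% of all 2133 genes tested (37.2% higher, 25.3% lower). Their median log2 ratio was -0.25, against 0.18 over all genes tested. GCN4 (YEL009C), the activator of many amino acid synthesis genes, had log2 ratios of -3.77, -4.03 and -3.45 on arrays 1, 2 and 3. It fell by 3.75 ± 0.29 (SD, n = 3; limma adjusted p = 1.02e-05), 13.5-fold on the linear scale; much of the known control of GCN4 acts on its translation, which arrays do not measure. The mitochondrial carriers for 2-oxoadipate and 2-oxoglutarate were also lower: ODC2 fell by 1.45 ± 0.10 and ODC1 fell by 0.86 ± 0.37 (SD, n = 3; limma adjusted p = 0.000269 and 0.00753). YPQ1, a vacuolar transporter of basic amino acids, fell by 1.68 ± 0.36, and VBA2, which moves basic amino acids into the vacuole, rose by 1.58 ± 0.36 (SD, n = 3; limma adjusted p = 0.000322 and 0.000452). KRS1, the cytosolic lysyl-tRNA synthetase, fell by 0.94 ± 0.35 (SD, n = 3; limma adjusted p = 0.00474). The lysine permease gene LYP1, named here outside the naming rule, had log2 ratios of 0.38, -0.66 and -0.31 and did not pass (limma adjusted p = 0.49).

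The pathway consumes 2-oxoglutarate and glutamate, and 12 genes for their supply were listed, 11 of them with a value on at least 1 array. Of the 9 measured on all arrays, 1 rose, 5 fell and 3 did not pass, with a median log2 ratio of -0.70, and this share called too was near that of all genes (62.5%). Over the 11 with at least 2 arrays, 2 rose and 5 fell, where 30.3% of all genes in that fit rose and 24.7% fell. The median was -0.15 there, against 0.086 over all genes of that fit, so it depends on which genes are admitted. GDH1, the glutamate dehydrogenase that builds glutamate from 2-oxoglutarate, fell by 2.85 ± 0.07, and the aconitase gene ACO1 fell by 2.77 ± 0.20 (SD, n = 3; limma adjusted p = 1.28e-05 and 1.86e-05). The subunits of the NAD-linked isocitrate dehydrogenase were both lower: IDH2 fell by 1.96 ± 0.0094 and IDH1 fell by 0.96 ± 0.19 (SD, n = 3; limma adjusted p = 5.91e-05 and 0.00235). The mitochondrial citrate synthase gene CIT1 fell by 0.70 ± 0.44 and the NADP-linked isocitrate dehydrogenase gene IDP1 rose by 0.62 ± 0.14 (SD, n = 3; limma adjusted p = 0.023 and 0.0141). Leaving out array 1 or array 3 took the call from CIT1 (log2 ratios of -0.46 and -0.75, with adjusted p of 0.152 and 0.0803). Leaving out array 2 or array 3 took it from IDP1 (0.63 and 0.55, with adjusted p of 0.0889 and 0.0735). Taking both lists, 2 genes rose and 10 fell of 20 tested, beside 37.2% and 25.3% of all genes. Of these genes 4 rose without array 1, where 960 of all 2945 genes tested rose, and 1 rose without array 3, where 608 of 2146 rose.

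Other pathways of amino acid synthesis were set beside the lysine genes, with 27 genes listed, 23 named on the array and 12 tested. In histidine synthesis 1 of 5 tested genes rose and 3 fell, with a median log2 ratio of -1.06. HIS1, the first step, fell by 3.08 ± 0.09, and HIS5, histidinol-phosphate aminotransferase, rose by 0.87 ± 0.35 (SD, n = 3; limma adjusted p = 1.13e-05 and 0.00657). HIS4, outside the naming rule, fell by 2.25 ± 0.17 (SD, n = 3; limma adjusted p = 4.27e-05). In arginine synthesis 2 genes were tested, and ARG4, argininosuccinate lyase, fell by 0.63 ± 0.16 (SD, n = 3; limma adjusted p = 0.0135). Leaving out array 1 or array 2 took the call from ARG4 (-0.55 and -0.63, with adjusted p of 0.0798 and 0.0843). In branched-chain amino acid synthesis 3 of 5 tested genes fell, with a median of -0.50. LEU1, isopropylmalate isomerase, fell by 1.12 ± 0.26, and LEU2, isopropylmalate dehydrogenase, fell by 0.50 ± 0.15 (SD, n = 3; limma adjusted p = 0.00142 and 0.0333). LEU2 lost its call when any 1 array was left out (-0.55 to -0.41, adjusted p = 0.0779 to 0.203). Genes of the 3 lists with 1 or 2 arrays were outside the naming rule. ILV1 was at -2.94 ± 0.33 and HIS7 at -1.59 ± 0.10 (SD, n = 2, limma adjusted p = 5.28e-06 and 0.000452 in the fit of genes with at least 2 arrays). On 1 array, ILV3 had -2.70 and LEU9 -1.46 (array 2), and ILV2 -1.83, BAT1 -1.60 and ARG1 -0.49 (array 3). ARG2 had 0.29 on array 2. In the arginine and branched-chain lists 0 genes were called higher by limma, and 0 were higher at an unadjusted p under 0.05. Over these 3 lists, in the fit of genes with at least 2 arrays, 1 gene rose and 8 fell of 14 tested, beside 30.3% and 24.7% of all genes. In the fit of genes with 3 arrays 1 rose and 7 fell of 12 tested, beside 37.2% and 25.3% of all genes. The share called in either direction was again near the 62.5% of all genes, but more of the called genes fell than rose. Of these genes 4 fell without array 2, where 559 of all 2482 genes tested fell, and 4 fell without array 3, where 464 of 2146 fell. No gene tested in the 3 lists had a mean log2 ratio above 0.87, while LYS1 was at 3.01. The difference between the lists was not tested.

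**Figure D3:**
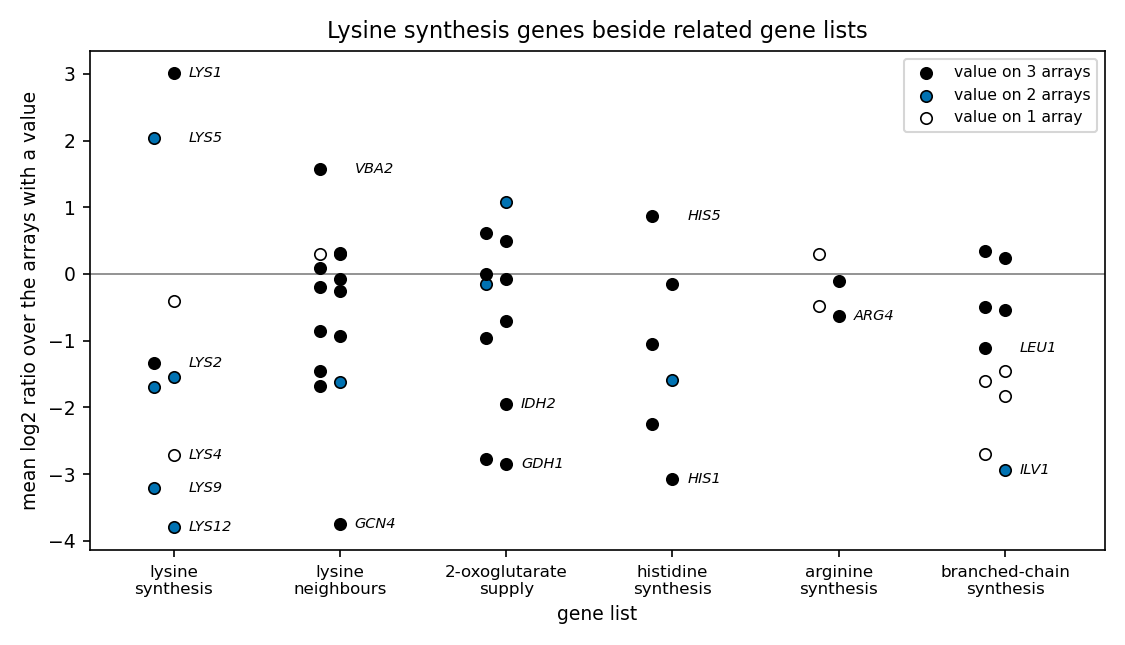
Mean log2 ratio over the arrays with a value (vertical axis) for each gene of 6 lists (horizontal axis); black points have 3 arrays, blue points 2 and open points 1. LYS1 at 3.01 and LYS5 at 2.04 are the highest points, and LYS12 at -3.80 and GCN4 at -3.75 the lowest.

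The genes whose log2 ratios lay closest to those of LYS1 over the 3 arrays, by Euclidean distance among the genes with 3 arrays, were YLR046C (distance 0.158), the formaldehyde dehydrogenase gene SFA1 (0.23), the CAAX protease gene STE24 (0.26) and the lipid droplet protein gene PLN1 (0.294). Their means lay between 2.96 and 3.06. With 3 arrays of one comparison this likeness is mostly one of size.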

How the data were processed

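Per the labels, polyA RNA of treated (Cy5) and untreated (Cy3) cells was hybridised to 2-colour arrays, each scanned at 2 laser powers. The authors deposited log2 ratios per probe and scan, normalised by LOWESS over unflagged spots, per the labels' descriptions. Base 2 was inferred from the smallest deposited value, -6.64, which equals a ratio of 0.01. For the image software and build, the sources used here give nothing.

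Of 6912 probes, 5446 had a symbol in GEO's platform annotation, and all 5379 genes matched the reference gene table by identifier. Probes of a gene were averaged, then the scans of an array, leaving 3 replicates. The test was limma's moderated test of each gene's mean against 0 (version 3.58.1, under R 4.3.3), with 2 residual degrees of freedom, 4.85 from the prior and Benjamini-Hochberg adjustment. It was run on simulated data for genes with 3 arrays, drawn from the fitted model with far fewer changed genes than were called here. That run cannot check the model's assumptions, and it did not cover the fit of genes with at least 2 arrays. Tables used pandas 2.3.3. Errors are SDs over arrays. The fit of genes with at least 2 arrays is an alternative setting. In it, genes with 2 arrays have 1 residual degree of freedom, and their p-values lean on the pooled variance.

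The members, lists and tests were chosen with earlier results of these data known. Named genes are the 9 members, the called genes of the neighbour and supply lists (up to 12), the highest and lowest called gene of each other list, and the 4 genes nearest to the tested member of largest absolute mean. No gene sequences were used here, so a planned promoter motif search was not run. Alternatives were scan power, array as random block, centring, scaling, missing-value filters, robust eBayes, a minimum fold of 1.5, single probes, a threshold of 0.01 and leaving out each array.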

Additional observations from a re-analysis of the deposited data

How the results depend on the processing

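LYS1 and LYS2 kept their direction and their call under every alternative that measured them. LYS1 ranged from 2.92 to 3.08 over 14 settings and LYS2 from -1.48 to -1.13 over 12, with adjusted p of at most 0.00082 and 0.0124. The 5 lysine genes with 2 arrays and the 2 with 1 array kept their sign in every setting that gave a value. For LYS4 and LYS14, with 1 scan value each, this says little. Apart from centring (-2.80 and -0.49), each setting left their value unchanged or only rescaled it, so the sign could not change. Of the lysine genes 2 were higher and 5 lower of 7 tested with at least 2 arrays required. Leaving out array 1, 2 or 3 gave 2, 1 and 1 higher and 3, 3 and 1 lower of 5, 4 and 2 tested. With low power scans alone, or all 6 scans required, LYS1 was the 1 lysine gene tested, so 0 were lower by limma (0 at an unadjusted p under 0.05). Of the neighbour and supply genes 1 was higher of 9 tested with low power scans, of 8 with all 6 scans, and of 20 with the minimum fold or the threshold of 0.01. Of all genes 225 of 560, 226 of 546, 414 of 2133 and 576 of 2133 were higher in these 4 settings. With low power scans, all 6 scans and the minimum fold, 5 of 9, 4 of 8 and 6 of 20 were lower. Of all genes 178 of 560, 182 of 546 and 306 of 2133 were lower there. Leaving out an array gave 1 to 4 higher and 9 to 10 lower of 20 to 23 tested. Of the 2146 to 2945 genes tested there in all, 608 to 960 were higher and 464 to 688 lower. Of the other amino acid lists 0 were higher by limma with low power scans, all 6 scans or the minimum fold (0 at an unadjusted p under 0.05). With low power scans and with all 6 scans, both of the 2 genes tested were lower, where 178 of 560 and 182 of 546 of all genes were. With the minimum fold and the threshold of 0.01, 3 of 12 were lower, where 306 and 404 of all 2133 genes were. Leaving out an array gave 4 to 6 lower of 12 to 14 tested. LYP1, which did not pass, ranged from -0.49 to 0.037 when an array was left out, turning sign without array 2; the cause was not tested. Of 314 values of named genes, 287 kept sign and call (or, untested, moved by under 1 SD) and 23 lost a call. Of the lysine genes only LYS1 and LYS2 had a main-test call to lose, and neither did. Another 3, untested and of LYS9 (-3.28 to -3.07, SD 0.025), moved by over 1 SD. Fits without an array rest on 1 residual degree of freedom. Each array sets treated beside untreated cells, so the test of log2 ratios against 0 already compares them within arrays. The labels hold 1 group of arrays, so there was no second group to pair it with.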

Other observations

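Protein-coding genes beside all 9 lysine genes were looked up after the values were seen, and none was tested against the lysine gene. A part of them, picked with the values known, is given here. Next to LYS1, MGA2, on one side, had log2 ratios of -0.76 and -0.78 on arrays 2 and 3. NRE1, on the other side, fell by 0.67 ± 0.23 (SD, n = 3; limma adjusted p = 0.0128). A step further on either side, above 0 like LYS1, DAL3 had 1.51 on array 2 and IRC24 had 1.66 and 2.31 on arrays 2 and 3. Beside LYS5, CDC43 had -1.13 on array 1 and -1.07 on array 3, and PEX14 had 0.56 on array 3. Beside LYS9, BRE5 had -0.31, -0.24 and 0.60 and did not pass (limma adjusted p = 0.948). Beside LYS2, RAD16 had 1.91 and the transketolase gene TKL2 had 3.50, each on array 3 alone. A step further from LYS2, and lower like it, the corepressor gene CYC8 fell by 1.27 ± 0.56 and the elongation factor gene TEF2 fell by 1.31 ± 0.50 (SD, n = 3; limma adjusted p = 0.00293 and 0.0019). Near LYS4, RTN1, the next gene and one of the endoplasmic reticulum, fell by 1.72 ± 0.05, and the riboflavin kinase gene FMN1, a step further on the other side, rose by 1.31 ± 0.05 (SD, n = 3; limma adjusted p = 0.00011 and 0.000417). Beside LYS14, MRH1 fell by 2.91 ± 0.14, and PST2, a step further, rose by 2.08 ± 0.14 (SD, n = 3, limma adjusted p = 1.3e-05 and 5.57e-05). On either side of LYS21, CDC53 rose by 1.32 ± 0.47 and STF1 rose by 1.21 ± 0.58 (SD, n = 3, limma adjusted p = 0.00158 and 0.00398). A step beyond STF1, RPP1B had -3.31 and -2.64 on arrays 2 and 3. Beside LYS12, PRK1 had -0.15 and 0.07 on arrays 1 and 3, and RSM25 had -2.07 on array 3.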
